A study of Mus musculus with 6 samples.

Results

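The 10 genes described here are the fibroblast growth factor (FGF) receptor genes *Fgfr1* and *Fgfr4*, the FGF ligand gene *Fgf2*, the hepatocyte growth factor (HGF) receptor gene *Met*, and 6 genes whose products restrain the ERK kinases and which ERK activity is known to induce, *Spry1*, *Spry2*, *Spry4*, *Spred1*, *Dusp4* and *Dusp6*. They were chosen by symbol, and all 10 were found among the 20654 genes of the count table. RNA-seq compared muscle satellite cells (MuSCs), the stem cells of skeletal muscle, from 3 control mice with MuSCs from 3 *Piezo1* conditional knockout (cKO) mice. PIEZO1 is a mechanosensitive ion channel of the cell surface. The control mice, wild type in the labels, had the genotype *Piezo1*+/+; *Pax7*CreERT2/+, and the cKO mice had *Piezo1* flox/flox; *Pax7*CreERT2/+, all on a C57BL/6 background. Cre was therefore driven from *Pax7*, a gene of MuSCs, in both groups, and both were given tamoxifen before isolation and 1 µM 4-hydroxytamoxifen in culture. The age of these mice was not given in the sources used here. MuSCs were sorted as VCAM1+, CD31-, CD45- and Sca1- cells and cultured for 3 d on Matrigel in a growth medium with 30% foetal bovine serum, 1% chicken embryo extract and 10 ng/mL basic FGF, the protein that *Fgf2* encodes. Ligand was thus supplied to all 6 cultures from outside.

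FGFs and HGF are growth factors that bring MuSCs out of quiescence and sustain the division of myoblasts. Their receptors are tyrosine kinases of the cell surface, which through adaptor proteins switch on RAS, RAF, MEK and ERK in turn and, by another branch, the p38 kinases. ERK then induces genes for its own inhibitors: Sprouty and SPRED proteins act on the path between the receptor and RAF, and the dual-specificity phosphatases (DUSPs) remove phosphate from ERK itself. The mRNA of these inhibitors is for this reason often read as a trace of ERK activity, but the present data hold only mRNA counts, and neither phosphorylated ERK nor receptor protein was measured here.

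The values are counts of unique molecular identifiers (UMIs), random tags that mark each cDNA molecule before PCR. Control libraries 1 to 3 held 740936, 931168 and 891531 counts, and the libraries with the *Piezo1* cKO label, here called cKO-labelled, held 810096, 726378 and 769295. Levels are given in CPM, counts scaled to a total of 1000000 in tested genes, with TMM normalisation, which makes the bulk of genes agree between libraries, and means are given ± SD with n = 3 libraries. A gene with 3 counts has between 3.35 and 4.31 CPM in these libraries. Fold changes are those of the cKO-labelled over the control libraries, from the quasi-likelihood test of edgeR on all genes that passed a filter on low counts, with Benjamini-Hochberg adjustment over all of them.

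*Piezo1*, the targeted gene, was not lower in the cKO-labelled libraries. It had 11, 5 and 6 counts in control libraries 1 to 3 and, with the cKO label, 7, 12 and 9, so that the groups overlapped. It did not pass the filter. When kept regardless, its log2 fold change was 0.42 (SE 0.46, edgeR adjusted p = 0.790). Counts primed from the poly(A) tail lie mainly near the 3' end of a transcript. Neither the place of the loxP sites nor that of the counted reads was examined here, so these counts do not check the deletion. The 3' end of *Piezo1* (GRCm38 chromosome 8, 122481698 to 122551329, minus strand) also overlaps *Ctu2* on the other strand over 2441 bases, and whether the counting used strand was not stated.

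The labelled cell type was checked against marker genes. *Myod1*, the myogenic factor of activated MuSCs, was the most abundant of the myoblast markers, at 1569, 1366 and 1441 CPM in the control and 1489, 1087 and 1353 CPM in the cKO-labelled libraries. *Pax7* had between 5 and 26 counts per library. Of the 8 tested myoblast markers 4 had a log2 fold change above 0 and 4 below. By edgeR 0 of the 8 were called, and DESeq2 gave an adjusted p to 6 and called 0. An unadjusted edgeR p under 0.05 was found for 3, 1 higher and 2 lower, beside 11.9% of all genes tested. *Cdh15*, M-cadherin, was higher without overlap (log2 fold change 0.53, edgeR adjusted p = 0.118). Lower without overlap were *Vcam1*, a marker of the sort (-0.45, edgeR adjusted p = 0.185), and *Sdc4*, described below. *Ptprc*, which encodes CD45, was not found by that symbol in the count table. *Pecam1*, which encodes CD31, had 0 to 2 counts per library, and no marker of endothelial cells or blood cells passed the filter. The libraries stood apart in differentiation. Of 10 listed genes of differentiating muscle, 8 were found in the count table, with *Acta1*, skeletal α-actin, the most abundant. They summed to 301, 112 and 270 CPM in control libraries 1 to 3 and to 523, 1520 and 699.6 CPM in the cKO-labelled libraries. All 6 of them that passed the filter were higher in the cKO-labelled libraries without overlap, beside 8.20% of all 8551 genes tested. None was called by edgeR, and 4 had an unadjusted p under 0.05, beside 11.9% of all genes tested. DESeq2 gave an adjusted p to 5 and called *Acta1* alone. Control library 2 was the lowest and the cKO-labelled library 2 the highest, and for several genes the change is also given without both of these libraries.

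None of the 10 genes was called as changed. Of the 8 that passed the filter, 0 had an adjusted p under 0.05 by edgeR, where 0.784% of the 8551 genes tested were called (40 higher and 27 lower). DESeq2 gave an adjusted p to 5 of the 10 and called 0, and called 27 of the 4007 genes to which it gave one (12 higher and 15 lower). At an unadjusted p under 0.05, edgeR again counted 0 of the 8, beside 11.9% of all genes tested. The log2 fold change was above 0 for 4 of the 8, beside 50.2% of all genes tested, and the median was 0.0041, beside 0.0021 for all genes tested. For *Spry2* alone the lowest cKO-labelled library lay above the highest control library, and for none of the 8 was the order the opposite, where 8.20% of all genes tested were higher and 8.31% lower without overlap. *Fgfr4* and *Fgf2* were below the filter and are described by their counts.

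**Figure D1:**
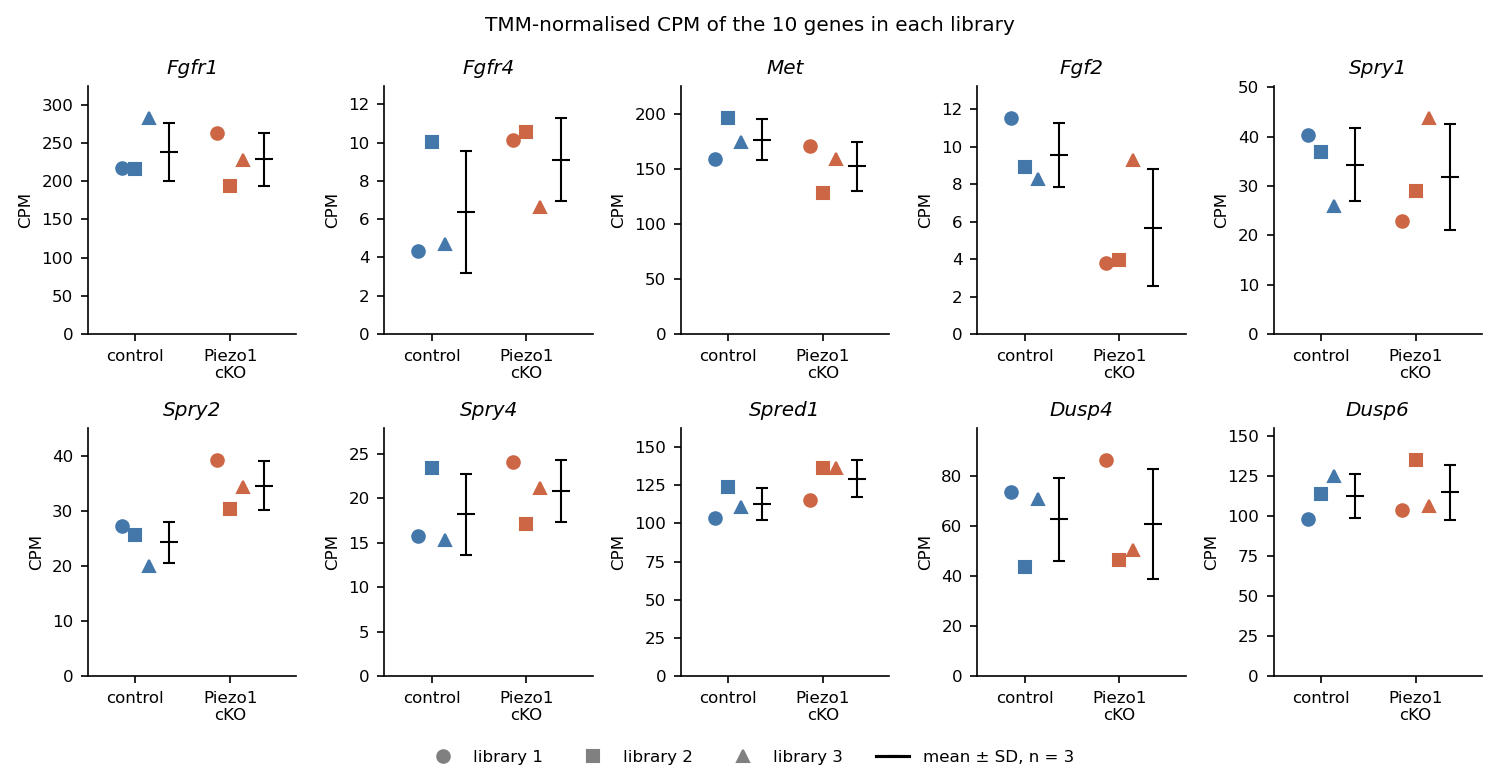
TMM-normalised CPM (vertical axis, from 0, a scale of its own for each gene) of the 10 genes in the 3 control and the 3 *Piezo1* cKO-labelled libraries; symbols give the library number and bars the mean ± SD. The groups overlap for every gene but *Spry2*, whose highest control library has 27.3 CPM and whose lowest cKO-labelled library has 30.4 CPM.

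*Fgfr1* (GRCm38 chromosome 8, 25513654 to 25575718, plus strand) encodes the FGF receptor best known in proliferating myoblasts. It had 217, 216 and 282 CPM in control libraries 1 to 3 and 264, 194 and 228 CPM in the cKO-labelled libraries. The highest value was in control library 3 and the lowest in the cKO-labelled library 2, and the groups overlapped. The mean was 239 ± 37.8 CPM in the control and 229 ± 34.8 CPM in the cKO-labelled libraries, a log2 fold change of -0.06 (SE 0.14, edgeR adjusted p = 0.919). The 95% interval of the ratio ran from 0.788 to 1.16. The sign of the change was not stable. It was above 0 with cyclic loess and with total counts as the scaling, which moved the median of all genes from 0.0021 to 0.078. With 1 library left out in turn it ran from -0.18 to 0.077.

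*Fgfr4* (chromosome 13, 55152640 to 55168759, plus strand) encodes the FGF receptor known from embryonic and regenerating muscle. It had 3, 9 and 4 counts in the control and 8, 8 and 5 in the cKO-labelled libraries, 16 against 21 in all. These counts are close to the floor, and the groups overlapped. The ratio of the pooled rates was 1.39, with a 95% interval (exact Poisson) of 0.692 to 2.85 that covers counting error only, and a difference was not detectable at this depth. Kept regardless of the filter, its log2 fold change was 0.47 (SE 0.53, edgeR adjusted p = 0.799). Per kilobase of annotated exon, the mean level in the control was 24.2 CPM for *Fgfr1* and 1.80 CPM for *Fgfr4*, although counts from the 3' end do not grow with transcript length, and in CPM the means were 239 and 6.36.

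*Met* (chromosome 6, 17463800 to 17573980, plus strand) encodes the receptor of HGF, a factor known to wake MuSCs after injury. It had 160, 196 and 175 CPM in control libraries 1 to 3 and 171, 128 and 159 CPM in the cKO-labelled libraries. Control library 2 was the highest and the cKO-labelled library 2 the lowest, and the other 4 libraries lay between 159 and 175 CPM with the groups interleaved. The means of 177 ± 18.4 and 153 ± 22.2 CPM gave a log2 fold change of -0.22 (SE 0.15, 95% interval -0.51 to 0.08, edgeR adjusted p = 0.601). Without both libraries numbered 2 it was -0.02. The level per kilobase of exon in the control was 23.0 CPM, close to that of *Fgfr1*, and the 2 receptors, with control means of 177 and 239 CPM, were the most abundant of the 10 genes. *Hgf*, the ligand gene, had 1 count in all 6 libraries together.

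*Fgf2* (chromosome 3, 37348346 to 37410108, plus strand) had 8, 8 and 7 counts in the control and 3, 3 and 7 in the cKO-labelled libraries. The first 2 cKO-labelled libraries were the lowest and the third equalled control library 3 in counts. Pooled, there were 23 counts against 13, and the ratio of rates was 0.599, with a 95% interval (exact Poisson) of 0.279 to 1.23. A difference was not detectable at this depth, and the log2 fold change with the gene kept regardless of the filter was -0.73 (SE 0.54, edgeR adjusted p = 0.643). The 3' end of *Fgf2* overlaps the gene *Nudt6* on the other strand over 5199 bases, so without knowledge of the strand setting reads of the 2 genes cannot be told apart there. Its level is therefore uncertain.

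Among the Sprouty genes, whose products act as inhibitors of signalling from receptor tyrosine kinases, *Spry2* had the largest fold change. It had 19, 23 and 17 counts in control libraries 1 to 3 and, with the cKO label, 31, 23 and 26, which are 27.3, 25.7 and 20.1 CPM against 39.3, 30.4 and 34.5 CPM. All cKO-labelled libraries were thus above all control libraries in CPM, although control library 2 and the cKO-labelled library 2 had the same count. The means were 24.4 ± 3.80 and 34.7 ± 4.46 CPM, a ratio of 1.43 (95% interval 0.973 to 2.11). The log2 fold change of 0.52 (SE 0.28) did not pass the test (edgeR adjusted p = 0.458), and the gene took place 1270 of 8551 by its p. The change stayed above 0 in all 15 alternatives, between 0.39 and 0.65.

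*Spry1*, which is known for the return of MuSCs to quiescence, had 40.3, 36.8 and 26.0 CPM in the control and 22.8, 29.1 and 43.7 CPM in the cKO-labelled libraries. The highest and the lowest of the 6 values were both in cKO-labelled libraries. Its log2 fold change was -0.10 (SE 0.27, edgeR adjusted p = 0.930). *Spry4* was the least abundant of the 8 genes that passed the filter, with 15.8, 23.4 and 15.4 CPM in the control and 24.1, 17.2 and 21.2 CPM in the cKO-labelled libraries. The groups overlapped here too, and the log2 fold change was 0.18 (SE 0.33, edgeR adjusted p = 0.899), or 0.54 without both libraries numbered 2. The counts of the 3 Sprouty genes were between 11 and 33 per library, so that their intervals are wide, from -0.65 to 0.44 on the log2 scale for *Spry1* and from -0.48 to 0.84 for *Spry4*.

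*Spred1* encodes a Sprouty-related inhibitor of RAS signalling that works with neurofibromin. It had 104, 124 and 111 CPM in control libraries 1 to 3 and 115, 136.0 and 136 CPM in the cKO-labelled libraries. The last 2 cKO-labelled libraries were the highest of the 6 and control library 1 the lowest, with control library 2 above the cKO-labelled library 1. The means were 113 ± 10.3 and 129 ± 12.1 CPM, a log2 fold change of 0.19 (SE 0.16, 95% interval -0.13 to 0.51, edgeR adjusted p = 0.692).

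The 2 phosphatase genes had nearly the same mean in both groups. *Dusp6* (chromosome 10, 99263231 to 99267489, plus strand), whose product acts on ERK in the cytoplasm, had 97.8, 114 and 125 CPM in the control and 104, 135 and 106 CPM in the cKO-labelled libraries. The means of 112 ± 13.8 and 115 ± 17.2 CPM gave a log2 fold change of 0.03 (SE 0.16, edgeR adjusted p = 0.969), and the 95% interval of the ratio ran from 0.813 to 1.28. *Dusp4*, whose product acts in the nucleus, had 73.3, 43.5 and 70.8 CPM in the control and 86.2, 46.2 and 50.4 CPM in the cKO-labelled libraries. It was the most variable of the genes above 50 CPM, with an SD of 26.5% of the mean in the control and 36.1% in the cKO-labelled libraries. The log2 fold change was -0.02 (SE 0.23, edgeR adjusted p = 0.987). Its sign turned with total counts as the scaling, which moved the median of all genes from 0.0021 to 0.078. With cyclic loess it was -0.09, and with 1 library left out in turn it ran from -0.36 to 0.14. *Dusp6* had the highest level per kilobase of exon of the 10 genes, 35.8 CPM in the control and 36.7 CPM in the cKO-labelled libraries. Counts from the 3' end do not grow with transcript length, so this rank depends on exon length. In CPM *Fgfr1* and *Met* were higher, with control means of 239 and 177.

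**Figure D2:**
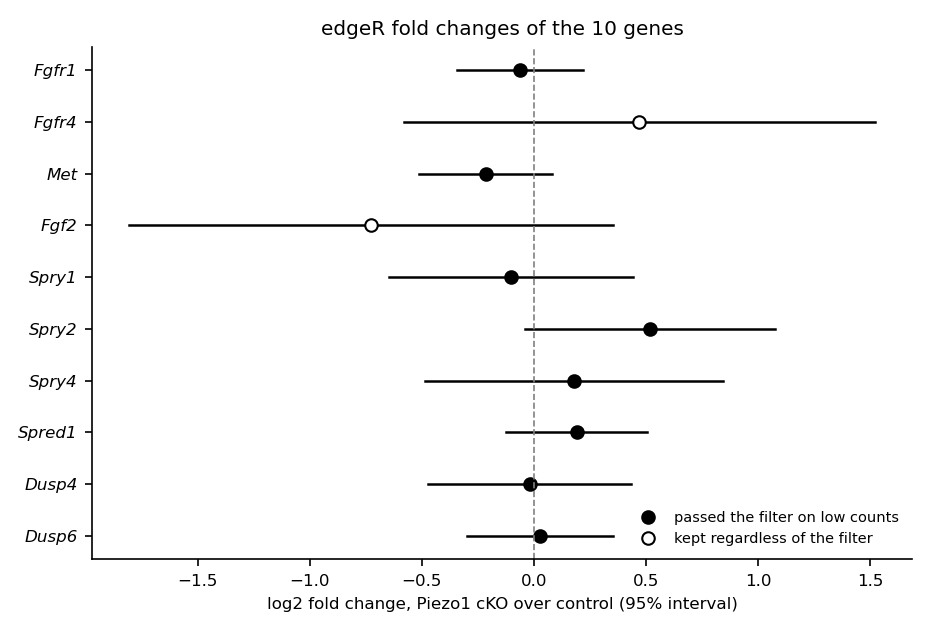
Log2 fold change (horizontal axis, cKO-labelled over control libraries, edgeR) of the 10 genes with 95% intervals; filled circles passed the filter on low counts and open circles, *Fgfr4* and *Fgf2*, were kept regardless of it. Every interval includes 0, and that of *Spry2*, from -0.04 to 1.07, lies farthest to the right among the genes that passed.

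Summed over the 6 inhibitor genes, the level was 358, 367 and 368 CPM in control libraries 1 to 3 and 392, 394 and 392 CPM in the cKO-labelled libraries. The groups did not overlap, although 3 of the 6 genes were lower or nearly equal in mean. Most of the difference came from *Spred1*, with means of 113 and 129 CPM, and *Spry2*, with 24.4 and 34.7 CPM. Of single genes tested, 8.20% were higher without overlap. No test was made of the summed level. The pooled counts were 890 and 903, and the ratio of rates was 1.08, with a 95% interval (exact Poisson) of 0.979 to 1.18, which covers counting error only. The SD of the control sums was 1.53% of their mean, whereas counting alone gives 5.81%, so these sums lay closer together than counts of this size do on average. With total counts as the scaling the ratio was 1.13 (1.03 to 1.24). This scaling also moved the median log2 fold change of all genes from 0.0021 to 0.078. The groups again did not overlap, at most 362 CPM in the control and at least 391 CPM in the cKO-labelled libraries. With this scaling 11.9% of single genes tested were higher without overlap. Without both libraries numbered 2 the ratio was 1.08 (0.959 to 1.21). The 3 receptor genes summed to 381, 423 and 462 CPM in the control and to 445, 333 and 394 CPM in the cKO-labelled libraries, and the groups overlapped.

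**Figure D3:**
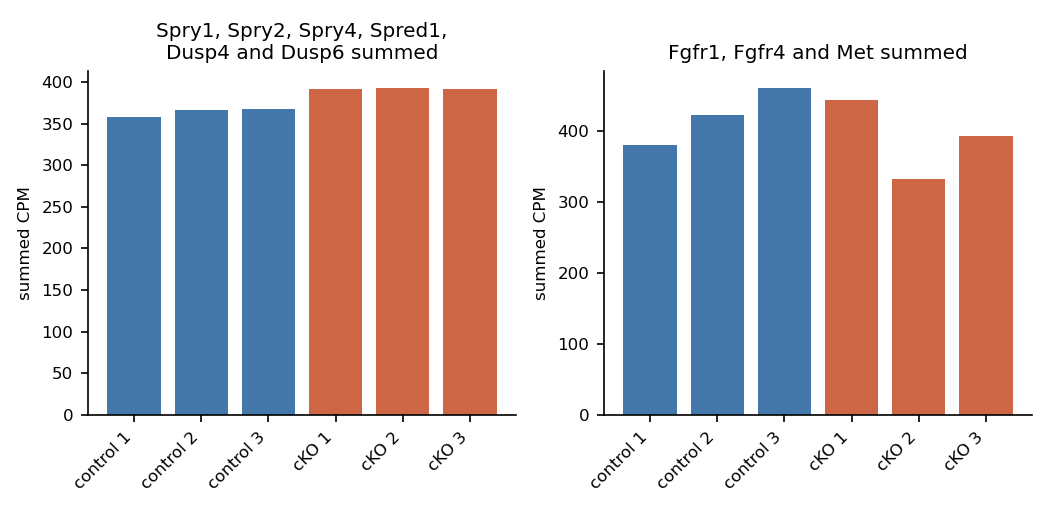
Summed CPM (vertical axes, from 0) of the 6 inhibitor genes, left, and of the 3 receptor genes, right, 1 bar for each library. The inhibitor sums lie between 358 and 368 CPM in the control and between 392 and 394 CPM in the cKO-labelled libraries, whereas the receptor sums overlap. Of single genes tested, 8.20% were higher without overlap.

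The genes showed no shared pattern across the libraries at this depth. Across the 6 libraries, Pearson's r of log2 CPM between pairs of the 8 genes ran from -0.77, for *Spred1* and *Dusp4*, to 0.70, for *Fgfr1* and *Dusp4*, with 3 of the 28 pairs above 0.5 and 3 below -0.5. These are descriptions over 6 points that share library, depth and group. With 11 to 33 counts per library for the Sprouty genes, counting error alone weakens such correlations, so a low r does not show separate control. Among 4694 other genes with a mean of at least 50 CPM, the profile nearest to *Fgfr1* was that of *Upf3b*, a factor of nonsense-mediated decay (r = 0.98), followed by *Zbtb7a* and *Gtse1*. The nearest to *Dusp6* were *Cnot6l* (r = 0.96), *Lage3* and *Glod4*. The nearest to *Met* were *Serbp1*, *Dusp5* and *Ddx1*, each at r = 0.99.

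*Dusp5* is itself a gene of the pathway, since its product is the nuclear phosphatase that acts on ERK alone. It had 198, 297 and 229 CPM in control libraries 1 to 3 and 210.4, 131 and 191 CPM in the cKO-labelled libraries. As for *Met*, control library 2 was the highest and the cKO-labelled library 2 the lowest, the libraries with the lowest and the highest sum of differentiation markers. That *Dusp5* shares this order with *Met* follows from its choice as a nearest profile. The log2 fold change of *Dusp5* was -0.45 (SE 0.16, edgeR adjusted p = 0.182) with all 6 libraries and -0.10 (edgeR adjusted p = 0.944) without both libraries numbered 2. Without the cKO-labelled library 1 it passed the threshold, at -0.60 (edgeR adjusted p = 0.018). *Dusp6* did not follow this order, and its highest value, 135 CPM, was in the cKO-labelled library 2. Whether the state of differentiation has a part in these levels was not tested.

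**Figure D4:**
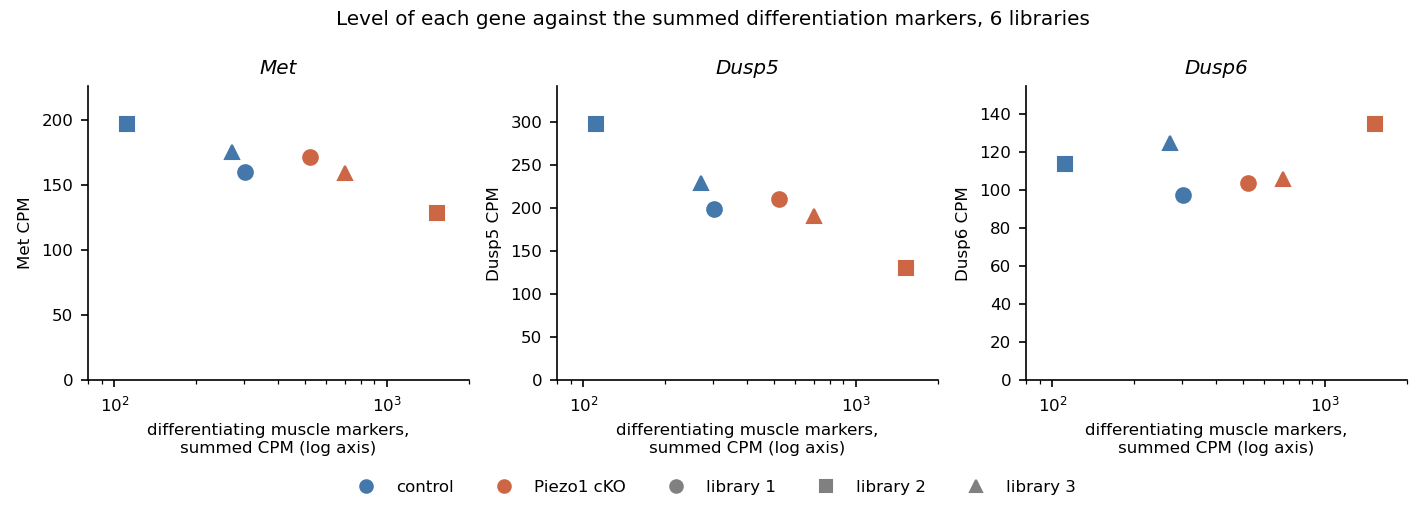
CPM of *Met*, *Dusp5* and *Dusp6* (vertical axes, from 0) against the summed CPM of the differentiating muscle markers (horizontal axis, log scale) in the 6 libraries. *Met* and *Dusp5* are highest in control library 2, at 112 CPM of markers, and lowest in the cKO-labelled library 2, at 1520 CPM, whereas *Dusp6* is highest in the latter.

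The bases before the start of *Dusp5* and *Dusp6*, 2 genes of ERK phosphatases chosen after their levels were seen, are shown next. They are RefSeq sequences of GRCm38.p6, 5' to 3' on the strand of the gene, and stop before the first annotated transcribed base. Capitals mark matches to the CArG box, the motif of serum response factor, which ERK signalling is known to use. Also searched, on both strands, were TGANTCA, the motif of AP-1, and CCGGAA, a core of ETS motifs, neither of which overlaps a CArG box here.
Dusp5, chr19:53528895-53529108, plus strand: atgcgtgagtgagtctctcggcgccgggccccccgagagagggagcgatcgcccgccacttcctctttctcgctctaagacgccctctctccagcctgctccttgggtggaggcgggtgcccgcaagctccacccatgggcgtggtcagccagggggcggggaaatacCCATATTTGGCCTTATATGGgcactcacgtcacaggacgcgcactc
Dusp6, chr10:99262981-99263230, plus strand: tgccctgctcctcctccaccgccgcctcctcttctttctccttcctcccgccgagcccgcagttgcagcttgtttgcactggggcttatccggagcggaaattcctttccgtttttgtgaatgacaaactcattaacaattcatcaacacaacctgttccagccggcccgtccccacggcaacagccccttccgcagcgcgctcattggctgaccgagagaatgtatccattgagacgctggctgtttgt

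*Dusp5* has 2 adjoining CArG boxes in this stretch, and *Dusp6* has no match to any of the 3 motifs. A CArG box was found in the 250 bases before the RefSeq start of 1.47% of 32851 promoters, TGANTCA in 6.75% and CCGGAA in 12%. Of the 10 genes, 7 had a promoter sequence, and among these *Met* had 1 match to TGANTCA, *Fgfr4* had 1 match to CCGGAA, and the others had none. A match is a description of the sequence, and binding was not measured. Whether these motifs have a part in the levels of *Dusp5* and *Dusp6* was not tested.

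The wider pathway was described with 9 lists that hold 164 genes in all, of which 100 passed the filter. None of the 100 was called by edgeR under the filter and threshold used here. DESeq2 gave an adjusted p to 56 genes of the lists and called 0. By edgeR 19 of the 100 had an unadjusted p under 0.05, 8 higher and 11 lower, where 11.9% of all genes tested did. Higher without overlap were 11 of the 100, beside 8.20% of all genes tested, and lower without overlap 7, beside 8.31%. Of the 22 FGF ligand genes, 2 passed the filter, *Fgf13* and *Fgf11*, which encode FGFs that stay within the cell, and neither had an unadjusted p under 0.05. The most abundant FGF ligand mRNAs after these were *Fgf2* and *Fgf7*, at mean levels of 9.56 and 4.26 CPM in the control.

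Of the 26 genes of FGF receptors and their co-receptors on the cell surface, 18 passed the filter, 4 with an unadjusted p under 0.05 and higher, and 1 lower, beside 11.9% of all genes tested with such a p. The lower one was *Sdc4*, syndecan 4, a heparan sulphate proteoglycan that binds FGF and marks MuSCs. It had 221, 316 and 226 CPM in the control and 212, 166 and 149.7 CPM in the cKO-labelled libraries, without overlap, a log2 fold change of -0.53 (SE 0.15, edgeR adjusted p = 0.061, DESeq2 adjusted p = 0.251). This was the smallest adjusted p of the 100 genes, and *Sdc4* passed the threshold with no filter, with at least 10 counts required in every library, and without control library 1, control library 3 or the cKO-labelled library 1. Without both libraries numbered 2 its log2 fold change was -0.31 (edgeR adjusted p = 0.684). *Sulf1*, whose product trims heparan sulphate and so limits FGF signalling, had 20.1, 14.5 and 11.8 CPM in the control and 22.8, 26.4 and 29.2 CPM in the cKO-labelled libraries. Its log2 fold change of 0.77 (SE 0.33, edgeR adjusted p = 0.309) was the largest of this list. *Sdc2* and *Cdh2*, at 178 ± 11.4 and 164 ± 25.6 CPM in the control, had log2 fold changes of 0.13 and 0.16 (edgeR adjusted p = 0.793 and 0.717).

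In the list of HGF, *Met* and HGF activation, 4 of 13 genes passed the filter, and 2 of them had an unadjusted p under 0.05, both lower, beside 11.9% of all genes tested. *Cd44*, which encodes a hyaluronan receptor that can act with MET, had 377, 414 and 338 CPM in the control and 322, 268 and 310.1 CPM in the cKO-labelled libraries. *Plaur*, the urokinase receptor, had 227, 247 and 236 CPM in the control and 196, 177 and 184 CPM in the cKO-labelled libraries. The groups did not overlap for either gene. The log2 fold changes were -0.33 (SE 0.13) for *Cd44* and -0.35 (SE 0.14) for *Plaur*, and neither passed the test (edgeR adjusted p = 0.277 and 0.251). Without both libraries numbered 2 that of *Cd44* was -0.17. *Plau*, urokinase, had a log2 fold change of 0.35 (SE 0.34, edgeR adjusted p = 0.739).

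Among the adaptors that link receptors to RAS, 15 of 17 genes passed the filter. Of the 15, 1 had an unadjusted p under 0.05, *Plcg1*, beside 11.9% of all genes tested. A log2 fold change above 0 was found for 11, beside 50.2% of all genes tested, with a median of 0.20, beside 0.0021. *Plcg1*, the phospholipase that binds activated FGF receptors, had 60.4, 58.0 and 62.6 CPM in the control and 95.1, 87.2 and 90.1 CPM in the cKO-labelled libraries. The groups stood apart. The spread within each was smaller than counting alone gives on average at these counts, 42, 52 and 53 against 75, 66 and 68. The log2 fold change was 0.59 (SE 0.19, edgeR adjusted p = 0.126). It was also 0.59 without both libraries numbered 2. *Grb2* and *Ptpn11*, the adaptor and the phosphatase that carry the signal from FGF receptors to RAS, had log2 fold changes of -0.07 and -0.31 (edgeR adjusted p = 0.915 and 0.489), that of *Ptpn11* being -0.15 without both libraries numbered 2, and *Grb10* and *Crk* had 0.08 and 0.05 (edgeR adjusted p = 0.900 and 0.946).

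In the RAS to ERK cascade 21 of 25 genes passed the filter, and 1 had an unadjusted p under 0.05, beside 11.9% of all genes tested. This was *Araf*, 1 of the RAF kinases, with 67.6, 51.3 and 80.3 CPM in the control and 91.3, 103 and 109.98 CPM in the cKO-labelled libraries, a log2 fold change of 0.61 (SE 0.18, edgeR adjusted p = 0.093, DESeq2 adjusted p = 0.390). It passed the threshold without control library 3 and without the cKO-labelled library 1 (edgeR adjusted p = 0.035 and 0.043). Without both libraries numbered 2 the log2 fold change of *Araf* was 0.43 (edgeR adjusted p = 0.627). *Rasa1*, a GTPase-activating protein that turns RAS off, was higher without overlap, with a mean of 349.9 ± 22.8 CPM in the control and 417 ± 23.8 CPM in the cKO-labelled libraries (log2 fold change 0.25, SE 0.13, edgeR adjusted p = 0.444). *Pebp1*, *Iqgap1* and *Map2k2* had log2 fold changes between -0.06 and 0.02. In the p38 branch 10 of 13 genes passed the filter, and 2 had an unadjusted p under 0.05, both lower, beside 11.9% of all genes tested. *Map2k3*, a kinase that activates p38 and the most abundant gene of the 9 lists, had 838, 984 and 867 CPM in the control and 850.5, 573 and 753 CPM in the cKO-labelled libraries, with the same highest and lowest libraries as *Met* and a log2 fold change of -0.31 (SE 0.14, edgeR adjusted p = 0.378) that was -0.09 without both libraries numbered 2. *Tab2* had the largest change of that list, 0.61 (SE 0.33, edgeR adjusted p = 0.464).

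Among the other inhibitors, *Errfi1*, which encodes an inhibitor of the epidermal growth factor receptor, was the most abundant, with 337, 357 and 328 CPM in the control and 273, 231 and 284 CPM in the cKO-labelled libraries. It was lower without overlap, a log2 fold change of -0.38 (SE 0.13, edgeR adjusted p = 0.184), and *Spred2* had 0.07 (SE 0.26). Of 11 DUSP genes 9 passed the filter, and the largest change was that of *Dusp9*, with 25, 34 and 25 counts in the control and 20, 9 and 12 in the cKO-labelled libraries. The groups did not overlap, and the log2 fold change was -0.95 (SE 0.30, edgeR adjusted p = 0.133). Without the cKO-labelled library 1 it was -1.30 (edgeR adjusted p = 0.029), and without both libraries numbered 2 it was -0.65 (edgeR adjusted p = 0.724). *Dusp1* and *Dusp2*, early response phosphatases, had log2 fold changes of 0.11 and 0.45 (edgeR adjusted p = 0.892 and 0.654). *Dusp2* passed the threshold without control library 1 (log2 fold change 0.87, edgeR adjusted p = 0.014), and without both libraries numbered 2 its log2 fold change was -0.007.

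Of 28 genes that ERK is known to induce, 15 passed the filter, 2 with an unadjusted p under 0.05 and higher, and 3 lower, beside 11.9% of all genes tested. *Myc*, a transcription factor of growing cells, had 276, 373 and 299 CPM in the control and 246, 210.0 and 233 CPM in the cKO-labelled libraries, without overlap. Its log2 fold change was -0.46 (SE 0.14, edgeR adjusted p = 0.092) with all libraries and -0.26 without both libraries numbered 2, and it passed the threshold without the cKO-labelled library 1 (edgeR adjusted p = 0.041). *Ccnd1*, cyclin D1, the most abundant of this list, had 531, 676 and 516 CPM in the control and 539, 417 and 425 CPM in the cKO-labelled libraries, a log2 fold change of -0.32 (SE 0.14, edgeR adjusted p = 0.317) that was -0.12 without both libraries numbered 2. *Jun* and *Klf10* had log2 fold changes of -0.24 and -0.005 (edgeR adjusted p = 0.497 and 0.992), with -0.07 for *Jun* without both libraries numbered 2, and *Ier3* had -0.68 (SE 0.35, edgeR adjusted p = 0.502). *Ier3* passed the threshold with no filter and without control library 3 (log2 fold change -0.95, edgeR adjusted p = 0.0044), and without both libraries numbered 2 it had -0.12. *Myc*, *Ccnd1* and *Ier3* had their highest level in control library 2.

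**Figure D5:**
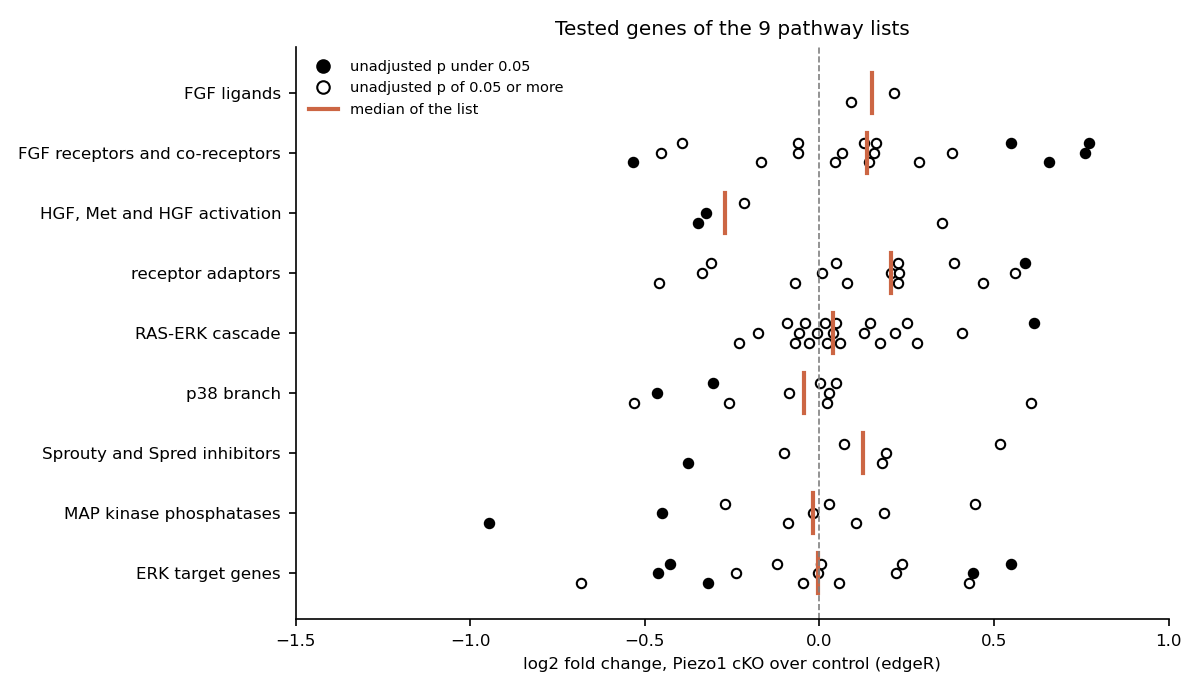
Log2 fold change (horizontal axis, edgeR) of each tested gene in the 9 pathway lists; filled circles have an unadjusted p under 0.05, open circles do not, and vertical bars are list medians. Genes lie on both sides of 0 in 8 of the lists, and the 19 filled circles fall 8 to the right and 11 to the left.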

How the data were processed

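RNA-seq was performed on 6 libraries, 3 of control and 3 of *Piezo1* cKO MuSCs. Per the labels and the methods of the study, 500 pg of RNA was primed with barcoded oligo-dT and amplified by 12 cycles of PCR, and reads were mapped to GRCm38 with STAR 2.7.9a, assigned with featureCounts 2.0.1 and counted with UMI-tools 1.1.1. The deposited values are UMI counts per gene, not normalised. Settings for strand and for reads with several matches were not given in the sources used here.

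Counts were tested in R 4.3.3 with edgeR 4.0.16 (TMM, robust quasi-likelihood fit, group as the only term, Benjamini-Hochberg adjustment, called under 0.05) on 8551 genes, left by its low-count filter (minimum 10). *Piezo1*, *Fgfr4* and *Fgf2* were below the filter and were fitted again with it waived. DESeq2 1.42.0 with default settings, the tool the study names, and limma 3.58.1 (voom, and cyclic loess with 3 iterations) were alternatives, with the others named in the closing section. Similarity of profiles used log2 CPM with a prior count of 2. Loci were taken from GENCODE vM21, and level per kilobase is mean CPM over the union of annotated exons. The steps were tested on simulated counts.

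The 10 genes, the pathway and marker lists and the tests were chosen with earlier results of these data known. Named were the 10 genes, *Piezo1*, the 4 most abundant genes and the gene with the largest change of each pathway list, the most abundant markers, and the 3 nearest profiles of *Fgfr1*, *Met* and *Dusp6*. Named outside this rule, with the data seen, were *Hgf*, *Pax7*, *Ptprc*, *Pecam1*, *Dcn*, *Pi16*, *Dpt*, *Ly6a*, *Pdgfra*, *Mkx*, *Cdh15*, *Vcam1*, *Egr1* and *Sulf2*. With 3 libraries against 3, no exact permutation test can give a two-sided p under 0.1, so single values were not tested in that way. Intervals and floors from counts cover counting error only. The libraries came from separate mice. The results of 1 marker list and of some single genes are left out here.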

Additional observations from a re-analysis of the deposited data

How the results depend on the processing

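None of the 8 genes above the filter was called in any alternative that gave it an adjusted p, nor were *Fgfr4* and *Fgf2* in the 11 that gave them one, and of 144 values of their fold changes 129 kept their sign and 15 did not. The log2 fold change of *Fgfr1* was 0.0103 with total counts and 0.00566 with cyclic loess, and that of *Dusp4* was 0.0539 with total counts. Without both libraries numbered 2, chosen after seeing the data, *Spry1* had 0.0221 and *Dusp6* -0.0972. With 1 library left out in turn, *Fgfr1* ran from -0.18 to 0.077, *Spry1* from -0.40 to 0.088, *Dusp4* from -0.36 to 0.14, *Dusp6* from -0.10 to 0.11, *Met* from -0.31 to -0.11, *Fgfr4* from 0.28 to 0.99, *Fgf2* from -1.26 to -0.51 and *Spry4* from 0.056 to 0.42. The members without overlap numbered 1 to 3 of 8 with 1 library left out, where 24.2% to 30.3% of all genes tested did not overlap, and 3 of 8 without both libraries numbered 2, where 37% did not. Fewer libraries make such gaps more frequent.

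Over all genes the count of 67 calls became 27 with DESeq2, 129 with no filter and 124 at an adjusted p under 0.1, and with 1 library left out it ran from 6, without the cKO-labelled library 2, to 174, without the cKO-labelled library 1. With total counts 49 of the 67 calls were higher, against 40 of 67 with TMM, and the median of all genes moved to 0.078. Of the pathway genes, 2 of 152 tested were called with no filter (*Sdc4* and *Ier3*), 1 of 89 with at least 10 counts in every library (*Sdc4*), 3 of 100 at an adjusted p under 0.1, and 0 to 5 with 1 library left out (4 without control library 3, 5 without the cKO-labelled library 1). With no filter more genes were tested, 19247, and the causes of the other shifts were not tested. The labels give both groups the numbers 1 to 3, but same-numbered libraries did not deviate together (correlations of -0.143, -0.203 and 0.012). In the fit blocked by replicate number 46 genes and 0 of the 10 were called.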

Other observations

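Other marker lists were read beside the pathway. Of 8 fibro-adipogenic markers 2 passed the filter, and *Dcn*, decorin, fell, with 18, 23 and 37 counts in the control and 8, 5 and 3 in the cKO-labelled libraries (log2 fold change -2.17, SE 0.38, edgeR adjusted p = 3.9e-04). DESeq2 gave it no adjusted p. The other tested gene, *Smoc2*, had a log2 fold change of 0.33 (edgeR adjusted p = 0.804), and *Ly6a*, which encodes the sort marker Sca1, was below the filter with 2, 2 and 3 counts in the control and 5, 8 and 9 in the cKO-labelled libraries. *Pdgfra*, also below the filter, had 4, 3 and 8 counts in the control and 1, 1 and 3 in the cKO-labelled libraries. The list summed to 80.5, 41.3 and 70.8 CPM in the control and 44.4, 42.3 and 46.4 CPM in the cKO-labelled libraries. Its most abundant gene was *Smoc2*, *Pi16* was at 0 in all libraries, and *Dpt* was not found by that symbol in the count table. The mural list rested on 1 tested gene, *Cspg4*, with 40.3, 27.9 and 29.5 CPM in the control and 49.4, 42.3 and 71.6 CPM in the cKO-labelled libraries (edgeR adjusted p = 0.143). Mural markers summed to 48.9, 35.7 and 50.8 CPM in the control and 62.1, 74.0 and 98.1 CPM in the cKO-labelled libraries, without overlap. *Scx* was the most abundant tenocyte marker (log2 fold change 0.15, edgeR adjusted p = 0.761). The other tested tenocyte gene, *Mkx*, had 2, 10 and 3 counts in the control and 11, 11 and 11 in the cKO-labelled libraries, higher without overlap (log2 fold change 1.21, SE 0.48, edgeR adjusted p = 0.256). Endothelial markers, led by *Tek*, summed to between 1.18 and 19.9 CPM per library, and haematopoietic markers, led by *Cd68*, to between 10.1 and 27.9 CPM. Whether these cells have a part in the levels of the 10 genes was not tested.

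Some genes outside the naming rule are given after their values were seen. *Egr1*, an early ERK target, had 64.7, 55.8 and 76.8 CPM in the control and 87.5, 96.4 and 105 CPM in the cKO-labelled libraries, higher without overlap, with a log2 fold change of 0.55 (SE 0.18, edgeR adjusted p = 0.159), whereas *Myc* of the same list was lower without overlap. *Sulf2*, a heparan sulphate sulphatase like *Sulf1*, had 36.0, 24.5 and 48.4 CPM in the control and 53.2, 71.3 and 59.6 CPM in the cKO-labelled libraries, with a log2 fold change of 0.76 (SE 0.24, edgeR adjusted p = 0.119). *Sulf2* passed the threshold without control library 3 (log2 fold change 1.04, edgeR adjusted p = 0.030), and without both libraries numbered 2 its log2 fold change was 0.40.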
